A study of Homo sapiens with 9 samples.

Results

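The endoplasmic reticulum (ER) chaperones, folding enzymes, degradation genes and stress sensors form a set of 33 genes in the 61487-row count table of OVCAR4 cells, a human line of high-grade serous ovarian cancer. The members were chosen by symbol, for their known function, but with earlier results of these data known. Each matched 1 row by its Ensembl ID. All cells had the WT genotype and fell into 3 groups of 3 libraries. Chemo-naive cells received DMSO, and Pt-resistant cells received either DMSO or EPZ015666 at 5 µM for 5 days. EPZ015666 inhibits the arginine methyltransferase PRMT5, and DMSO is its solvent. The Pt-resistant cells are a derivative of the same line kept under platinum, and no source used here says whether they are 1 clone. The libraries of a group came from wells of a culture plate, so a p-value reflects well-to-well spread, which may be of technical origin.

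Proteins bound for secretion or for membranes enter the ER through a translocon, fold with the help of chaperones, receive disulphide bonds from oxidases and isomerases, and carry sugar trees that lectin chaperones read. Proteins that fail to fold are drawn back through the membrane and handed to the proteasome, a route called ER-associated degradation. When unfolded chains accumulate, 3 sensors start the unfolded protein response: IRE1, which splices XBP1 mRNA; PERK, which slows translation; and ATF6, which is cut to release a transcription factor. Transcripts of the chaperones themselves, with HSPA5 as the usual readout, rise in that response.

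Library totals ran from 14320929 to 19114811 counts, and 14630 genes passed the filter on low counts, with all 33 members among them. DERL3 passed it only through its naive level, which fixed its direction against naive cells beforehand, so it is described without a test and the counts of calls below are over the other 32 members. Levels are in CPM, counts relative to the TMM-scaled library total. PRMT5 mRNA had group means of 121.0 ± 1.48, 116.9 ± 10.1 and 116.5 ± 10.6 CPM (SD, n = 3) in naive, Pt-resistant and treated cells and passed no test, and its mRNA does not show whether the enzyme was inhibited. Of 11 serous and epithelial markers, 10 stood at 1 CPM or more in every group, while WT1 stayed at 0.222 to 0.318 CPM. Markers of plasma cells, which are rich in ER, summed to at most 0.5354 CPM in any library, and 1 of 8 fibroblast markers, COL1A1, reached 1 CPM. Of 4 endothelial markers, PECAM1 and CDH5 were present, at group means of 43.7 to 95.3 and 46.7 to 67.9 CPM. VWF and KDR were low, at 1.02 to 2.65 and 0.713 to 1.16 CPM.

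Several members carry in their promoters the short elements through which ATF6 and XBP1 are known to act. These elements are shown here because many of their holders were lower with the inhibitor. That held for 9 of 11 holders and also for 11 of 19 members with neither element, beside 30.5% of all tested genes. A part of the elements in these falls was not tested. RefSeq promoters (build GRCh38.p14, 250 bases before to 50 after a start) were found for 30 members, all but PDIA3, DERL1 and DERL3. The ER stress element ERSE was searched on both strands as CCAAT, 9 bases of any kind and CCACG. ERSE-II was searched as ATTGG, any base and CCACG. ERSE lay in 8 of the 30 promoters (26.7%) and in 25 of all 27305 genes with a promoter (0.0916%), and ERSE-II in 3 members (10%) and in 19 genes (0.0696%). Capitals mark the fixed letters, and a CGTGG followed by ATTGG, or by CCAAT in ERSE-II, is the element read on the other strand. Each sequence runs along the gene's own strand and includes 5 bases on either side.
HSPA5, chr9:125241386-125241414, minus strand: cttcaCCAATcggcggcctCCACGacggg
HSP90B1, chr12:103930211-103930239, plus strand: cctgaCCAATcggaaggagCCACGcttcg
HSP90B1, chr12:103930316-103930344, plus strand: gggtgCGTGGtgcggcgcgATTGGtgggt
XBP1, chr22:28800598-28800626, minus strand: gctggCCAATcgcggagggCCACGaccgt
CALR, chr19:12938379-12938407, plus strand: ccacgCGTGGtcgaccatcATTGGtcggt
CANX, chr5:179698773-179698801, plus strand: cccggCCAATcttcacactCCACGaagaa
PDIA6, chr2:10812848-10812876, minus strand: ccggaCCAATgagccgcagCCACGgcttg
ERO1B, chr1:236282178-236282206, minus strand: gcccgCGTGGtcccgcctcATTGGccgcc
CRELD2, chr22:49918549-49918577, plus strand: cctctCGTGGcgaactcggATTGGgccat
HYOU1, ERSE-II, chr11:119057375-119057395, minus strand: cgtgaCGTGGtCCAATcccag
HYOU1, ERSE-II, chr11:119057269-119057289, minus strand: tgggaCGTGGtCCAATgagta
HERPUD1, ERSE-II, chr16:56932020-56932040, plus strand: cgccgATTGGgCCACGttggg
SDF2L1, ERSE-II, chr22:21642109-21642129, plus strand: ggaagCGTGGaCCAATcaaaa

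The elements lay at different distances from the start. The XBP1 element was among the nearest, from base -52 to -34 before the start, that of HSPA5 ran from -66 to -48, and that of ERO1B was the farthest, from -243 to -225. HSP90B1 and HYOU1 held 2 exact matches each. Copies with a changed letter were not searched, so a promoter can hold more such elements than are marked. The core of the XBP1-binding element, TGACGTGG, occurred in 1 member, HYOU1 (3.33% of members, 0.927% of all genes), where its bases -188 to -181 overlap those of an ERSE-II at -185 to -175. TGATG, any base and AA, the site of ATF4 with CHOP, occurred in HERPUD1 alone (3.33% of members, 4.46% of all genes). A match describes letters in this window and not a bound site.

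In Pt-resistant against naive cells the set split. Of the 32 members, 12 were higher and 9 lower at an adjusted p under 0.05, 37.5% and 28.1%, beside 29.8% and 29.4% of all tested genes, so both shares were near the background. The median log2 fold change of the members was 0.03, against 0.010 over all genes. HSPA5, ERO1B, SEC61B and ATF6 led the higher members, and PDIA4, SDF2L1 and CALR the lower ones. With the inhibitor the picture leaned 1 way, with 5 members higher (15.6%) and 20 lower (62.5%) than under DMSO, beside 31.9% and 30.5% of all genes. The median was -0.29, against 0.006 over all genes. HSPA5, HYOU1 and CRELD2 fell most, and ERO1A rose most. Treated Pt-resistant cells against naive cells gave 7 members higher (21.9%) and 19 lower (59.4%), beside 32.2% and 31.2% of all genes, with a median of -0.36 against 0.001. These comparisons share libraries, so their values stand side by side and are not independent.

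**Figure D1:**
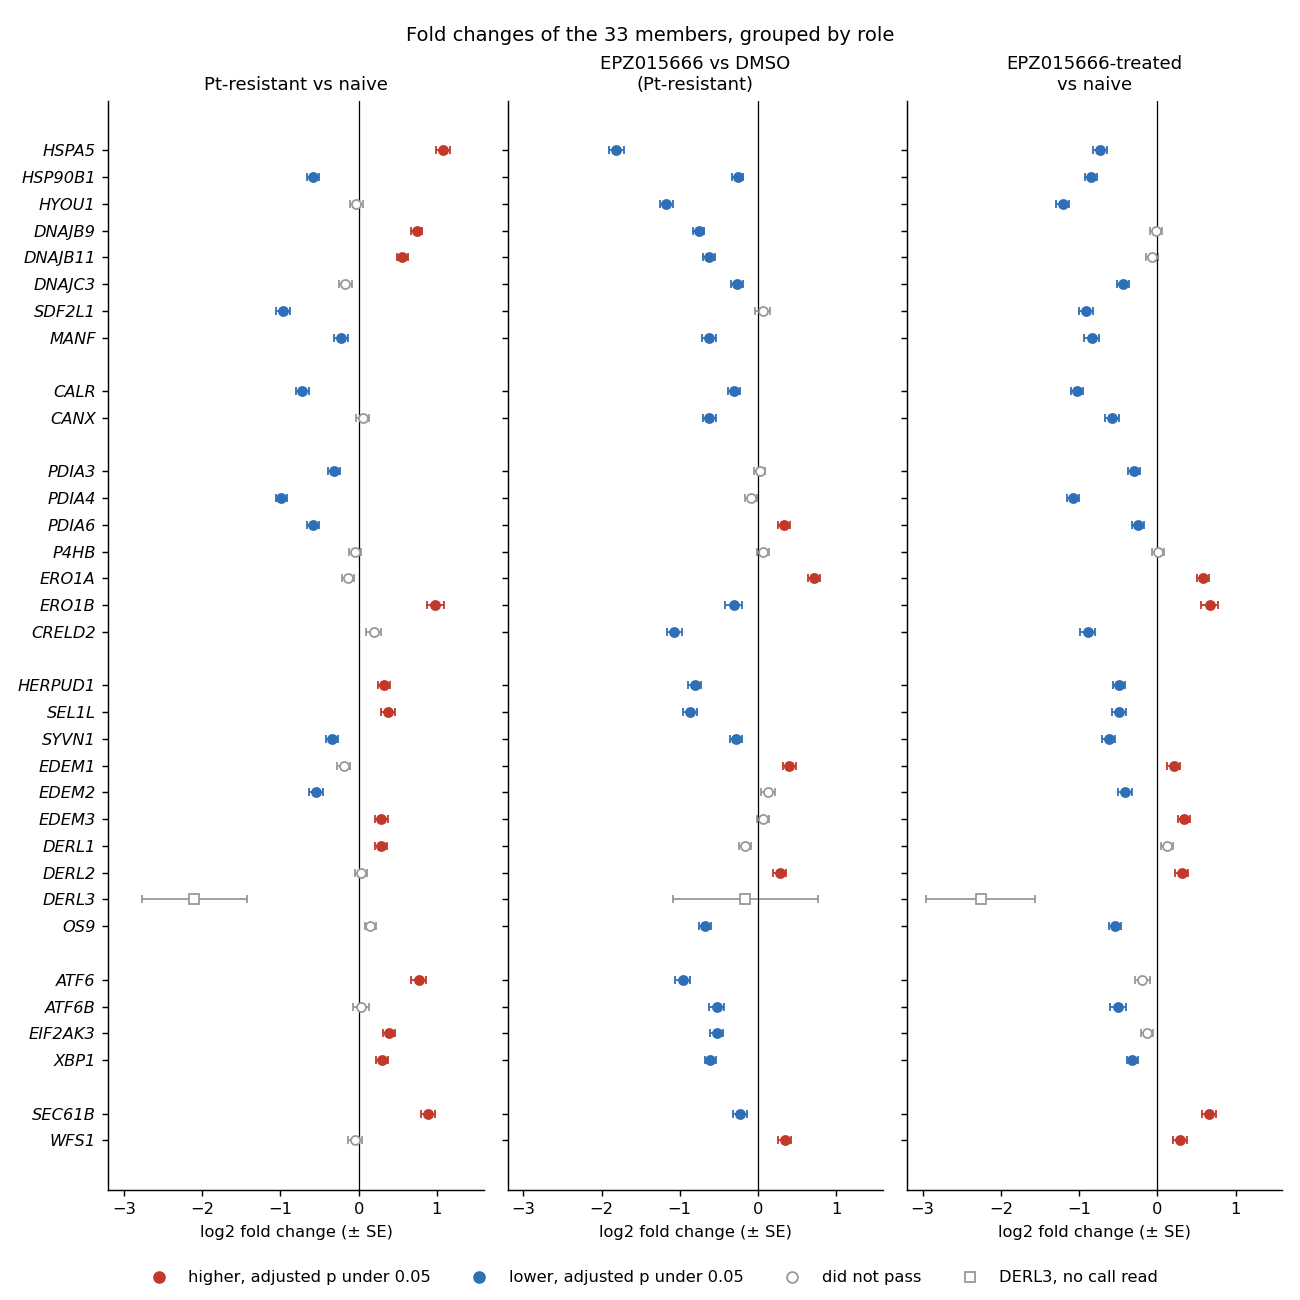
Log2 fold change (x axis, ± SE) of each of the 33 members (y axis, grouped by role from chaperones at the top to the translocon at the bottom) in 3 comparisons of 3 libraries a group. Red and blue points passed the test at an adjusted p of 0.05 as higher and lower, open grey points did not, and the square is DERL3, for which no call is read; in the middle panel 20 members are blue and 5 red.

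The members together took 0.998% to 1.09% of all counts in naive libraries, 1.00% to 1.11% in Pt-resistant and 0.687% to 0.722% in treated ones. HSPA5 alone held 11.5% to 13.2% of the members' counts in naive libraries, 24.2% to 26.2% in Pt-resistant and 10.3% to 11.1% in treated ones. Without HSPA5 the share ran from 0.883% to 0.949% in naive, from 0.760% to 0.818% in Pt-resistant and from 0.616% to 0.642% in treated libraries. The 32 other members thus held the largest share in naive cells, and the 3 groups did not overlap. In bulk RNA, fewer cells with a transcript and less of it per cell cannot be told apart. Mitochondrial mRNAs took 5.97% to 7.82% of counts in naive, 4.45% to 5.19% in Pt-resistant and 6.26% to 8.31% in treated libraries, and immune markers summed to 1.099 to 1.762, 0.4803 to 0.6745 and 4.640 to 5.739 CPM. The serous and epithelial markers took 0.434% to 0.481%, 0.403% to 0.422% and 0.324% to 0.331% of counts in the same order of groups. The part of these markers and of the mitochondrial share in the differences was not tested.

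**Figure D2:**
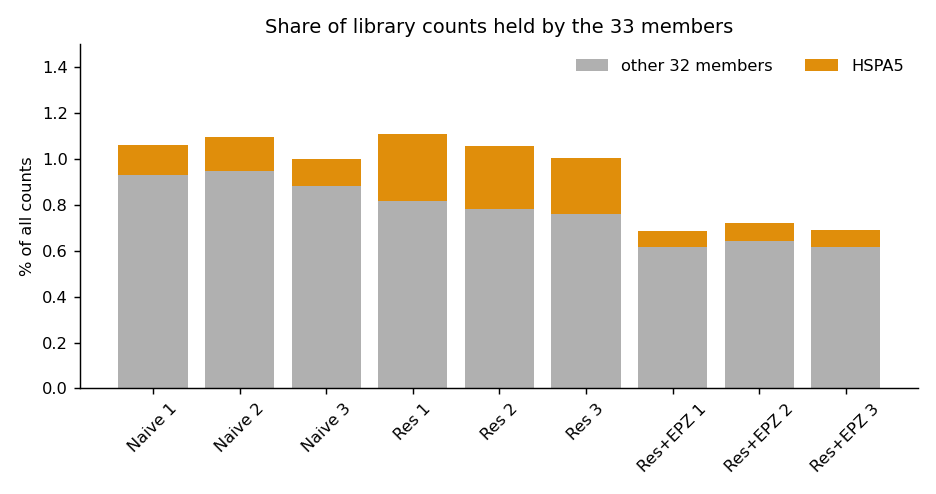
Percent of all counts of a library (y axis) held by HSPA5 (orange) and by the other 32 members (grey), for the 9 libraries (x axis; Res is Pt-resistant, EPZ is EPZ015666). HSPA5 adds most in the 3 Pt-resistant libraries, and the total is lowest in the 3 treated ones, at 0.687% to 0.722%.

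The ER chaperones of the BiP and GRP94 group fell in 7 of 8 cases (87.5%) with the inhibitor, beside 30.5% of all genes, and 0 rose. In Pt-resistant against naive cells 3 were higher and 3 lower (37.5% each), near the shares of 29.8% and 29.4% over all genes. HSPA5 encodes BiP, the Hsp70 of the ER, which also holds the sensors inactive. It stood at 1258, 1424 and 1147 CPM in naive, 2886, 2781 and 2409 in Pt-resistant and 720.8, 819.7 and 763.4 in treated libraries. No group overlapped another, and the treated libraries lay below the naive ones. The log2 fold change was 1.08 ± 0.091 (SE, adjusted p = 5.87e-10, edgeR with Benjamini-Hochberg adjustment) for resistance, -1.81 ± 0.093 (adjusted p = 1.11e-13) for the inhibitor and -0.73 ± 0.091 (adjusted p = 2.24e-07) for treated against naive cells. The 150 bases before its start are shown because it changed most of all members with the inhibitor, with the ERSE letters in capitals.
HSPA5, chr9:125241344-125241493, minus strand: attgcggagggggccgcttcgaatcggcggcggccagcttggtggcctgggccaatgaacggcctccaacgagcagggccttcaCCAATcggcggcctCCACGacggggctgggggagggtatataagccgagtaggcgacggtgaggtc

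HYOU1, the large Hsp70-like exchange factor of BiP, stood at 246.1, 290.2 and 250.8 CPM in naive, 261.6, 260.2 and 247.9 in Pt-resistant and 106.4, 121.9 and 112.6 in treated libraries. Naive and Pt-resistant libraries overlapped, and all treated ones lay lower. Its log2 fold change was -0.03 ± 0.080 (adjusted p = 0.748) for resistance and -1.17 ± 0.082 (adjusted p = 1.76e-11) for the inhibitor. DNAJB9, a J-domain partner of BiP that acts on IRE1, read 122.9, 130.8 and 137.0 CPM in naive, 227.4, 208.2 and 217.5 in Pt-resistant and 124.5, 130.1 and 130.6 in treated libraries. The treated libraries fell within the naive range, at a log2 difference of -0.02 ± 0.075 (adjusted p = 0.827), after a rise of 0.74 ± 0.074 (adjusted p = 9.68e-09) and a fall of -0.76 ± 0.075 (adjusted p = 5.72e-09). DNAJB11, another such partner, had means of 141.0 ± 6.49, 207.7 ± 9.94 and 134.0 ± 8.13 CPM (SD, n = 3) in the same order of groups.

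Other chaperones were lower in Pt-resistant cells. SDF2L1, which joins DNAJB11 in a complex around BiP, read 88.97, 82.73 and 79.22 CPM in naive, 42.03, 48.77 and 37.20 in Pt-resistant and 44.17, 42.17 and 47.00 in treated libraries. It was the 1 chaperone that did not pass with the inhibitor (log2 fold change 0.06 ± 0.094, adjusted p = 0.594), the groups overlapping there, while it was lower in Pt-resistant than in naive cells by -0.97 ± 0.092 (adjusted p = 3.48e-09). HSP90B1, the Hsp90 of the ER known as GRP94, fell from 1766 ± 73.9 to 1179 ± 25.9 CPM between naive and Pt-resistant cells and stood at 981.4 ± 20.3 CPM with the inhibitor. MANF, a secreted protein that binds BiP, had means of 71.75 ± 2.37, 61.71 ± 5.99 and 40.02 ± 4.69 CPM. Its call for resistance (adjusted p = 0.0392) was lost on leaving out replicate 1 (0.0911) or 2 (0.0655) of naive cells, or replicate 2 (0.130) or 3 (0.154) of Pt-resistant cells. DNAJC3, a J-domain chaperone also called p58IPK, had means of 109.4 ± 1.21, 97.43 ± 7.23 and 80.90 ± 6.30 CPM and passed only in the comparisons with treated cells. Without Pt-resistant replicate 2 it passed for resistance as well (adjusted p = 0.0275). The same held with library totals alone (0.0394) or with the replicate number as a block (0.0491).

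**Figure D3:**
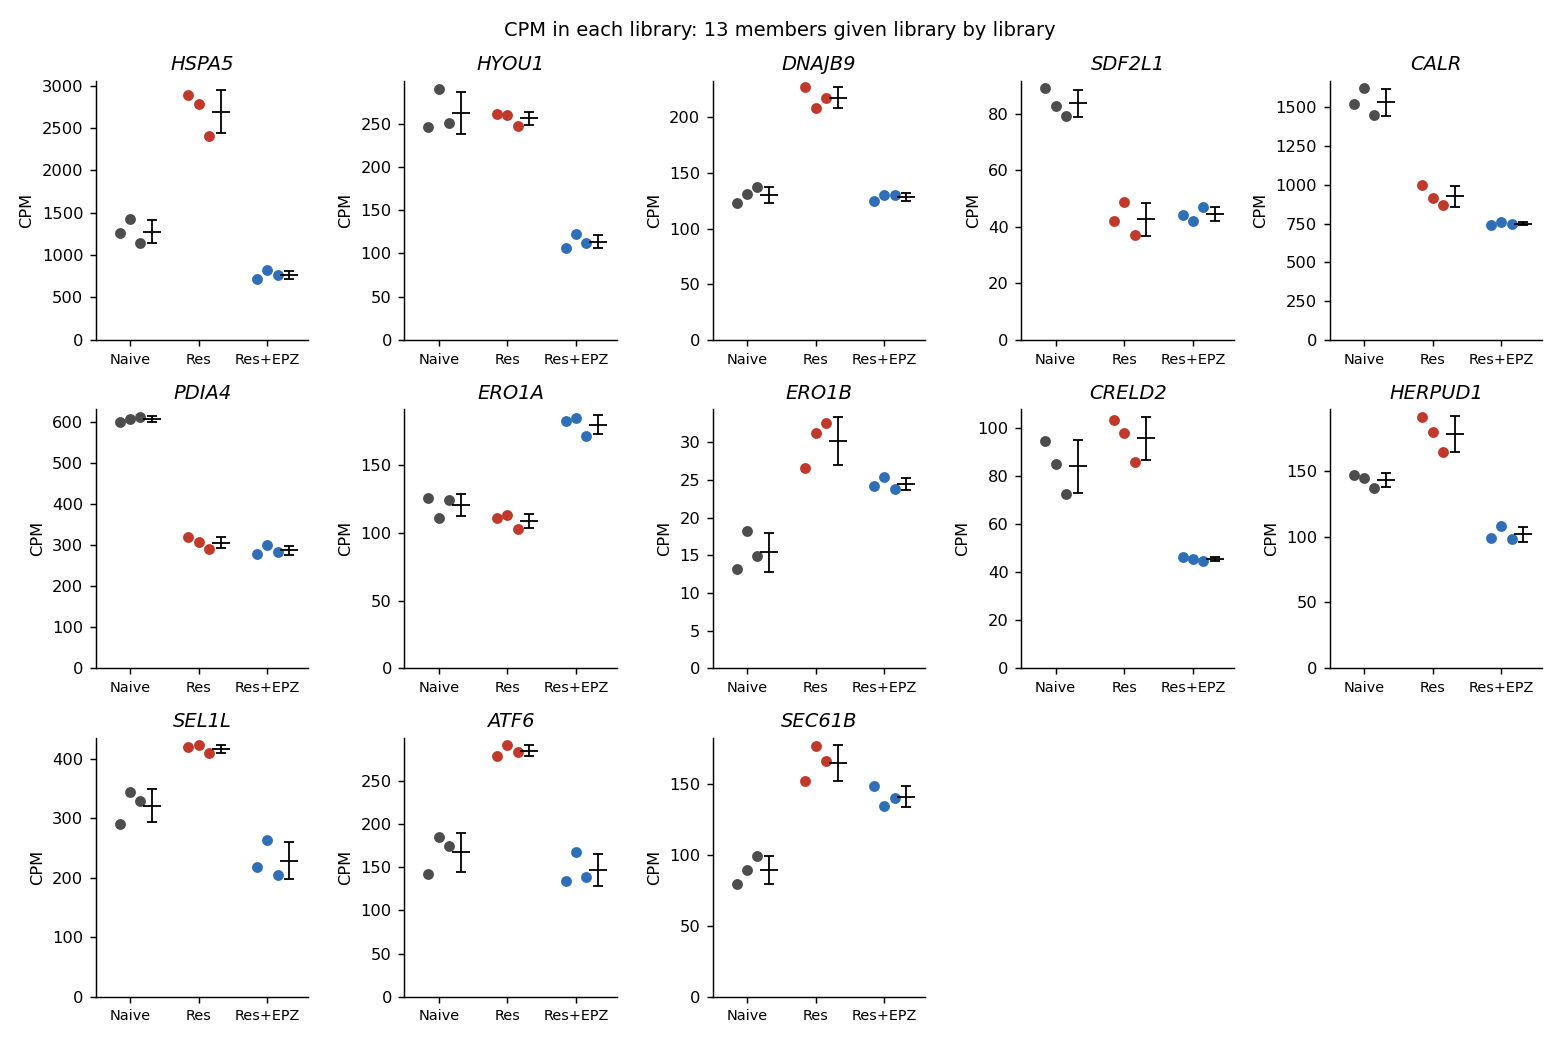
CPM (y axis, from 0) in each of the 9 libraries for 13 members, 1 panel each, in naive (grey), Pt-resistant (Res, red) and EPZ015666-treated Pt-resistant (Res+EPZ, blue) cells, with the mean and SD of 3 libraries in black. HSPA5, DNAJB9, HERPUD1, SEL1L and ATF6 are highest in Pt-resistant libraries, and PDIA4, CALR and SDF2L1 in naive ones.

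Both lectin chaperones fell with the inhibitor, as did 30.5% of all genes, and with so few genes nothing is read from this share. Calreticulin and calnexin hold glycoproteins that carry a single glucose, the first in the lumen and the second in the membrane. CALR read 1521, 1625 and 1449 CPM in naive, 1001, 912.8 and 867.0 in Pt-resistant and 741.2, 760.1 and 744.2 in treated libraries. The groups stepped down without overlap, by a log2 fold change of -0.72 ± 0.079 (adjusted p = 3.33e-08) for resistance and -0.31 ± 0.078 (adjusted p = 0.00157) for the inhibitor. CANX was at 516.6 ± 36.6 and 534.2 ± 27.8 CPM in naive and Pt-resistant cells, which did not pass (adjusted p = 0.655), and fell to 346.7 ± 43.4 CPM with the inhibitor (log2 fold change -0.62 ± 0.088, adjusted p = 1.61e-06).

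Of the 7 disulphide enzymes 2 rose and 2 fell with the inhibitor (28.6% each), close to the shares over all genes (31.9% and 30.5%). For resistance 1 was higher (14.3%) and 3 lower (42.9%), beside 29.8% and 29.4%. The 3 lower ones were isomerases, which shuffle disulphide bonds. PDIA4 read 599.2, 608.3 and 612.7 CPM in naive, 318.9, 307.4 and 291.6 in Pt-resistant and 279.1, 300.4 and 284.1 in treated libraries. Naive libraries stood clear of the rest (log2 fold change -0.99 ± 0.073, adjusted p = 5.38e-11), and Pt-resistant and treated ones overlapped (-0.09 ± 0.073, adjusted p = 0.302). PDIA6 fell from 449.4 ± 30.0 to 300.0 ± 13.9 CPM and stood at 377.8 ± 4.85 CPM with the inhibitor, higher than under DMSO by 0.33 ± 0.075 (adjusted p = 0.000504). PDIA3, the isomerase that works with the lectin chaperones, went from 305.7 ± 22.5 to 245.0 ± 13.4 CPM (adjusted p = 0.000941) and stood at 249.1 ± 3.43 CPM with the inhibitor. P4HB, the founding disulphide isomerase, passed in none of the 3 comparisons, with means of 996.4 ± 30.8, 963.0 ± 59.3 and 1004 ± 23.7 CPM.

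The paired oxidases ERO1A and ERO1B, which recharge the isomerases, received different calls. ERO1A read 126.1, 111.1 and 124.2 CPM in naive, 110.8, 113.4 and 103.3 in Pt-resistant and 182.8, 185.4 and 172.1 in treated libraries. It was the member that rose most with the inhibitor, by 0.72 ± 0.077 on the log2 scale (adjusted p = 2.19e-08). Naive and Pt-resistant libraries overlapped (-0.14 ± 0.077, adjusted p = 0.117, and 0.0403 without naive replicate 2). ERO1B read 13.11, 18.19 and 14.85 CPM in naive, 26.60, 31.27 and 32.58 in Pt-resistant and 24.18, 25.36 and 23.74 in treated libraries. It was higher in Pt-resistant cells by 0.98 ± 0.11 (adjusted p = 8.19e-08) and fell with the inhibitor by -0.31 ± 0.11 (adjusted p = 0.0163). That second call was lost on leaving out replicate 2 (0.0501) or 3 (0.0869) of Pt-resistant cells, or replicate 3 (0.0568) of treated cells.

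CRELD2, an ER-resident protein that is induced by ER stress, read 94.82, 85.07 and 72.48 CPM in naive, 103.5, 98.18 and 85.97 in Pt-resistant and 46.42, 45.51 and 44.56 in treated libraries. Naive and Pt-resistant libraries overlapped, and treated ones lay below both. The log2 fold change with the inhibitor was -1.07 ± 0.094 (adjusted p = 8.82e-10). For resistance it was 0.19 ± 0.091 (adjusted p = 0.0821), and this passed once replicate 1 of naive cells (0.0161) or replicate 3 of Pt-resistant cells (0.0340) was left out. It also passed with the replicate number as a block (0.0360).

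In ER-associated degradation, 4 of 9 members other than DERL3 were higher (44.4%) and 2 lower (22.2%) in Pt-resistant than in naive cells. Over all genes these shares were 29.8% and 29.4%. With the inhibitor 2 rose (22.2%) and 4 fell (44.4%), beside 31.9% and 30.5% of all genes. With so few genes, nothing is read from these shares. HERPUD1, a membrane scaffold of the ubiquitin ligase complex, read 146.8, 144.7 and 137.0 CPM in naive, 190.9, 179.2 and 163.9 in Pt-resistant and 99.04, 108.0 and 97.80 in treated libraries. No group overlapped another. It rose by 0.32 ± 0.078 (adjusted p = 0.00119) and fell with the inhibitor by -0.81 ± 0.079 (adjusted p = 5.04e-09). SEL1L, the adaptor that stabilises that ligase, read 290.1, 343.4 and 329.0 CPM in naive, 418.9, 422.1 and 409.2 in Pt-resistant and 217.4, 263.6 and 205.2 in treated libraries. Its groups were likewise separate, with changes of 0.38 ± 0.088 (adjusted p = 0.000758) and -0.87 ± 0.089 (adjusted p = 1.23e-08). SYVN1, the ligase itself, known as HRD1, stepped down in both, with means of 70.95 ± 2.66, 56.25 ± 3.46 and 46.22 ± 2.40 CPM.

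The genes that read or trim the sugar trees of glycoproteins bound for degradation differed from one another. OS9, which reads trimmed sugar trees, had means of 272.7 ± 10.5, 301.9 ± 11.8 and 188.2 ± 10.0 CPM and fell with the inhibitor by -0.68 ± 0.074 (adjusted p = 3.3e-08). EDEM1, EDEM2 and EDEM3 trim mannose from such trees. EDEM1 rose with the inhibitor from 56.30 ± 3.32 to 74.18 ± 4.57 CPM (adjusted p = 0.0002), EDEM2 was lower in Pt-resistant than in naive cells (32.31 ± 3.22 against 46.96 ± 3.07 CPM, adjusted p = 1.59e-05), and EDEM3 was higher (107.3 ± 5.31 against 88.08 ± 6.94 CPM, adjusted p = 0.00334). For EDEM1, resistance alone did not pass (adjusted p = 0.0558) but did once replicate 2 of naive cells (0.0211) or replicate 1 of Pt-resistant cells (0.0290) was left out. It also passed with library totals alone (0.0338), in a fit on the groups compared (0.0499) or with the replicate number as a block (0.0468). The rise of EDEM1 in treated over naive cells (adjusted p = 0.0284) was lost without naive replicate 2 (0.134), naive replicate 3 (0.0619), treated replicate 1 (0.0587) or treated replicate 2 (0.120), and over all libraries it was lost with library totals alone (0.121) or no low-count filter (0.0825).

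The derlins form part of the channel through which degradation substrates leave. DERL1 was higher in Pt-resistant than in naive cells (124.8 ± 4.84 against 102.1 ± 1.13 CPM, adjusted p = 0.00212), and DERL2 rose with the inhibitor from 57.55 ± 1.76 to 70.00 ± 1.02 CPM (adjusted p = 0.00439). DERL3, the form of secretory tissues, was scarce, at 0.7376, 1.030 and 0.6921 CPM in naive, 0.4203, 0.1064 and 0.05189 in Pt-resistant and 0.4730, 0 and 0 in treated libraries. Naive libraries were the highest, and the rest overlapped. These levels rest on 39, 10 and 8 counts over the 3 libraries of each group. In GENCODE 29, 77% of the exon bases of DERL3 overlap SMARCB1 on the opposite strand, and which strand was counted is not given, so DERL3 is uncertain.

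All 4 sensors and transcription factors fell with the inhibitor (30.5% of all genes did), and 3 of them, all but ATF6B, were higher in Pt-resistant than in naive cells (29.8% of all genes). ATF6 read 141.6, 185.2 and 174.4 CPM in naive, 279.1, 291.3 and 283.6 in Pt-resistant and 133.9, 168.1 and 138.5 in treated libraries. Pt-resistant libraries stood above all others, and naive and treated ones overlapped. The changes were 0.77 ± 0.095 (adjusted p = 2.41e-07), -0.96 ± 0.095 (adjusted p = 7.5e-09) and, in treated against naive cells, -0.19 ± 0.095 (adjusted p = 0.0920). The last passed without naive replicate 1 (0.00924) or treated replicate 2 (0.0146), and also with library totals alone (0.0227) or the replicate number as a block (0.0489). XBP1, the target of IRE1 splicing, had means of 316.9 ± 13.3, 389.3 ± 11.7 and 254.4 ± 5.15 CPM, with changes of 0.30 ± 0.072 (adjusted p = 0.00106) and -0.61 ± 0.072 (adjusted p = 1.05e-07). Gene counts do not separate its spliced from its unspliced form. EIF2AK3, which encodes PERK, had means of 44.02 ± 1.98, 57.78 ± 0.539 and 40.11 ± 1.96 CPM. ATF6B, a paralog of ATF6, stood at 25.34 ± 0.508 and 25.93 ± 1.55 CPM and fell to 18.00 ± 2.21 CPM with the inhibitor (-0.53 ± 0.10, adjusted p = 7.59e-05).

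SEC61B, a small subunit of the translocon, read 79.21, 89.26 and 99.29 CPM in naive, 151.8, 176.9 and 166.0 in Pt-resistant and 148.8, 134.3 and 140.0 in treated libraries. Naive libraries were the lowest, and treated ones lay just under Pt-resistant ones. It was higher in Pt-resistant cells by 0.89 ± 0.087 (adjusted p = 6.14e-09) and fell with the inhibitor by -0.23 ± 0.085 (adjusted p = 0.0248). The second call was lost without Pt-resistant replicate 2 (0.116) or replicate 3 (0.0597), or without treated replicate 2 (0.0961) or replicate 3 (0.0662). WFS1, an ER membrane protein of calcium balance, had means of 25.98 ± 1.26, 25.19 ± 1.16 and 31.87 ± 1.40 CPM and rose with the inhibitor (0.34 ± 0.088, adjusted p = 0.00192).

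Set side by side, the calls of the 3 comparisons fell into the forms listed here. The share of all genes with each form was not counted, and the comparisons share libraries. The forms therefore describe the members and are not read as particular to them. HSPA5, HERPUD1, SEL1L and XBP1 were higher in Pt-resistant than in naive cells, lower with the inhibitor, and lower in treated than in naive cells. ATF6, DNAJB9, DNAJB11 and EIF2AK3 had the same first 2 calls and none in treated against naive cells, and ERO1B and SEC61B stayed higher there. CALR, HSP90B1, MANF and SYVN1 were lower in all 3 comparisons. In 6 members (ATF6B, CANX, CRELD2, DNAJC3, HYOU1 and OS9) resistance did not pass and both comparisons with treated cells were lower. In 4 (EDEM2, PDIA3, PDIA4 and SDF2L1) resistance was lower and the inhibitor did not pass. DERL2, EDEM1, ERO1A and WFS1 were higher in both comparisons with treated cells. PDIA6 was the 1 member lower with resistance and higher with the inhibitor. EDEM3 was higher in both comparisons with naive cells, DERL1 was higher with resistance alone, and P4HB passed in none.

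Split by promoter letters, the 11 members with an ERSE or ERSE-II, shown above by their sequences, gave 9 lower and 1 higher with the inhibitor, at a median log2 fold change of -0.61, beside 30.5% lower and 31.9% higher over all genes. The higher one was PDIA6, and SDF2L1 did not pass. The 19 members with neither element gave 11 lower and 4 higher, at a median of -0.27. For resistance the holders gave 4 higher and 4 lower with a median of 0.05, and the others 7 higher and 4 lower with a median of 0.03. Over all genes 29.8% were higher and 29.4% lower with resistance. Against naive cells, 10 of 11 holders were lower in treated cells and ERO1B was higher, while of the other 19 members 8 were lower and 6 higher. Over all genes 31.2% were lower and 32.2% higher in treated than in naive cells. The split was made after the falls of these holders were seen and restates them, the difference between holders and others was not tested, and the members were picked as genes of this response, so their share of elements is a description.

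Per kilobase of exon, with exon lengths from GENCODE 29, the members other than DERL3 ran in naive cells from 564 CPM per kb for CALR to 2.87 for ERO1B. CALR was followed by HSP90B1 at 376, HSPA5 at 327 and P4HB at 188. In Pt-resistant cells HSPA5 came first at 689, ahead of CALR at 342 and HSP90B1 at 251. In treated cells CALR was again first at 276, then HSP90B1 at 209, HSPA5 at 197 and P4HB at 189. At the low end, ERO1B went from 2.87 to 5.62 and 4.56 CPM per kb and DERL3 from 0.216 to 0.0508 and 0.0415. Lengths were not measured in these cells, and with the longest transcript as the length, HSPA5 ranked 4, 1 and 5 in the 3 groups in place of 3, 1 and 3. Between the libraries of a group the median coefficient of variation of the members other than DERL3 was 5.84%, 5.08% and 5.03% in naive, Pt-resistant and treated cells.

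**Figure D4:**
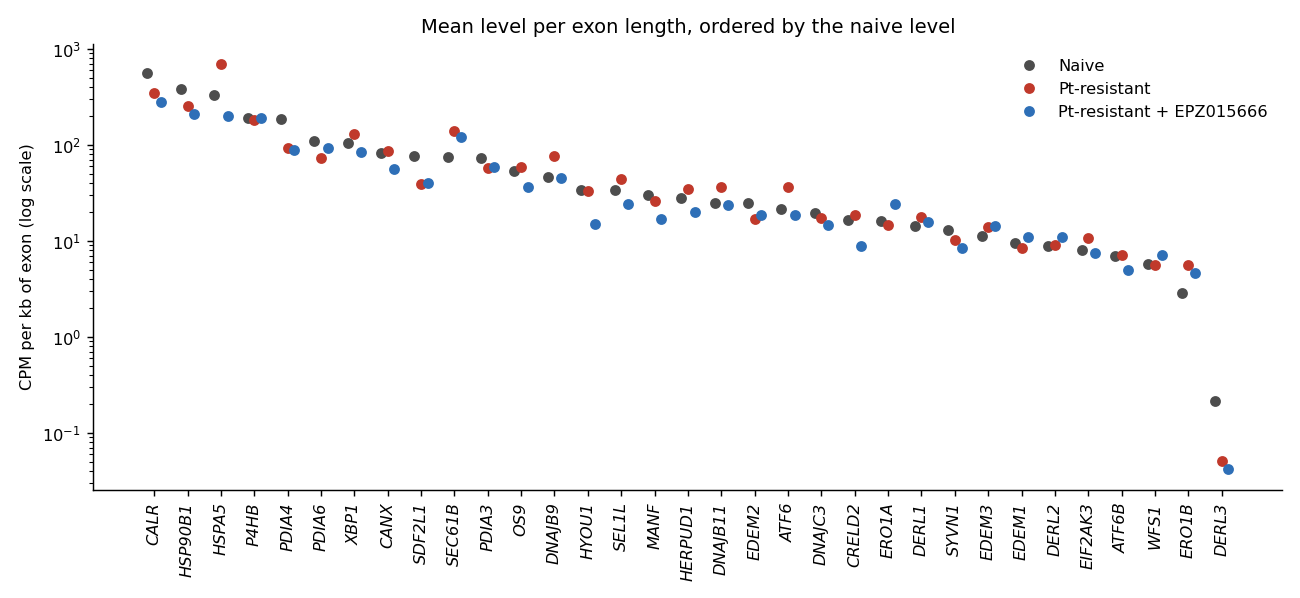
Mean CPM per kilobase of exon (y axis, log scale) of the 33 members (x axis, ordered by the naive level) in naive (grey), Pt-resistant (red) and treated (blue) cells. HSPA5 stands at 327, 689 and 197 and is the highest member in Pt-resistant cells, and DERL3 is the lowest in every group.

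Around the members, 137 further genes of the ER pathways were listed in 6 groups by function, and 134 of them were tested. In Pt-resistant against naive cells 56 were higher (41.8%) and 34 lower (25.4%), and with the inhibitor 31 were higher (23.1%) and 46 lower (34.3%). Among the 34 was a folding gene that passed the low-count filter only through its naive level, so its call is not read. Over all genes the shares were 29.8% and 29.4% for resistance and 31.9% and 30.5% for the inhibitor. Of the signalling genes of the unfolded protein response, 11 of 14 were higher and 2 lower in Pt-resistant cells, with 0 higher and 9 lower with the inhibitor. DDIT3, which encodes the stress factor CHOP, had means of 196.2, 389.9 and 119.6 CPM in naive, Pt-resistant and treated cells. PPP1R15A, the phosphatase subunit GADD34 that restores translation, had means of 104.4, 224.9 and 82.41 CPM. Their log2 fold changes were 0.99 ± 0.11 and 1.11 ± 0.12 for resistance, and -1.70 ± 0.11 and -1.45 ± 0.12 for the inhibitor. ERN1, the gene of IRE1, was higher in Pt-resistant cells by 0.87 ± 0.13 (adjusted p = 2.68e-06), and NUPR1, a stress-induced nuclear protein, fell with the inhibitor by -1.36 ± 0.11 (adjusted p = 2.14e-10). CREB3L4, a membrane-bound transcription factor, went the other way with resistance, by -0.62 ± 0.10 (adjusted p = 2.24e-05).

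**Figure D5:**
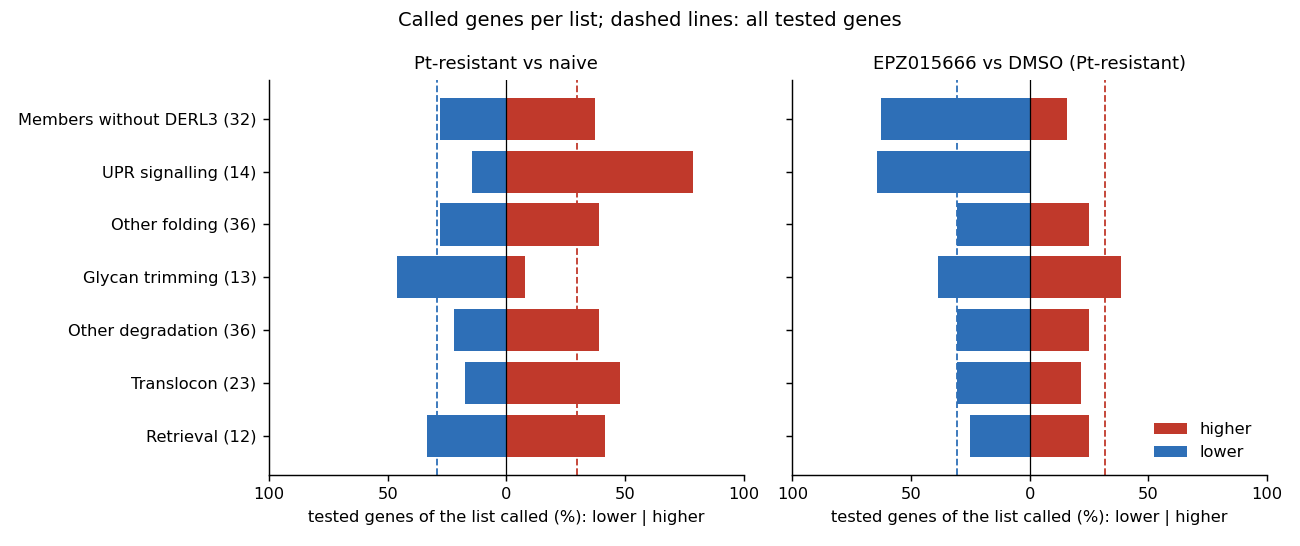
Percent of the tested genes of each list (number tested in brackets) called higher (red, to the right) or lower (blue, to the left), for Pt-resistant against naive cells (left) and EPZ015666 against DMSO in Pt-resistant cells (right), with dashed lines at the shares over all tested genes. The 32 members other than DERL3 and the 14 signalling genes reach the furthest left in the right panel, at 62.5% and 64.3%.

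The other 5 lists held genes that moved both ways. Over all genes 29.8% were higher and 29.4% lower with resistance, and 31.9% and 30.5% with the inhibitor. Of 36 further folding genes, 14 were higher and 10 lower in Pt-resistant cells, and with the inhibitor 9 were higher and 11 lower. The membrane thioredoxin-like proteins TMX3 and TMX4 were higher in Pt-resistant cells (0.83 ± 0.096 and 0.78 ± 0.088) and fell with the inhibitor (-0.87 ± 0.096 and -1.20 ± 0.090), and SERPINH1, the collagen chaperone HSP47, was lower in Pt-resistant cells (-0.75 ± 0.073). Glycan trimming and quality control had 6 of 13 genes lower and 1 higher with resistance, and 5 each way with the inhibitor. PRKCSH, the non-catalytic subunit of glucosidase II, changed from 430.2 CPM in naive to 185.5 in Pt-resistant and 431.1 in treated cells. MLEC, a lectin of the early sugar tree, fell from 457.1 to 201.9 CPM with resistance, and UGGT2, a glucosyltransferase of the folding check, fell with the inhibitor from 47.55 to 20.91 CPM.

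Of 36 further degradation genes, 14 were higher and 8 lower in Pt-resistant cells, and with the inhibitor 9 were higher and 11 lower. The ubiquitin ligase gene RNF185 and UBXN4, an ER adaptor of the ATPase p97, were higher in Pt-resistant cells (0.55 ± 0.096 and 0.62 ± 0.077) and fell with the inhibitor (-0.76 ± 0.097 and -0.74 ± 0.077), while the deubiquitinase gene YOD1 rose with it from 22.91 to 56.09 CPM. Among 23 genes of the translocon and of signal peptide processing, 11 were higher and 4 lower with resistance, and 5 and 7 with the inhibitor. TRAM1, a membrane protein beside the channel, fell from 671.6 to 416.4 CPM and was at 660.6 CPM in treated cells. Of 12 retrieval genes, 5 were higher and 4 lower with resistance and 3 each way with the inhibitor, among them KDELR3, a receptor that returns chaperones to the ER, at 24.23, 16.22 and 35.31 CPM.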

How the data were processed

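RNA of 9 wells was sequenced after a directional library kit. Read quality was looked at with FastQC, and the authors mapped and counted them with STAR (GeneCounts) and deposited whole-number, unnormalised counts per gene. No source used here gives versions, genome build, annotation or the strand column. Multi-mapping reads, and those shared by overlapping genes, are left out by STAR, so members with pseudogene copies, such as HSP90B1 and PDIA3, can be undercounted, and 5 members share over 10% of their exon bases with a gene on the opposite strand in GENCODE 29 (DERL3, PDIA6, PDIA3, EIF2AK3 and OS9).

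Of 61487 rows, 61369 were named from a symbol table and 105 from GENCODE 29. The filter was filterByExpr with a minimum count of 10, and 14630 genes with 99.88% of counts passed it. They were scaled by TMM and fitted over all 9 libraries with edgeR 4.0.16 (quasi-likelihood, R 4.3.3), with Benjamini-Hochberg adjustment over all genes and a threshold of 0.05. DESeq2, with Pt-resistant cells as the reference, was the study's own test. The biological coefficient of variation was 7.66%. Standard errors are the log2 fold change over the root of F. Within groups, log2 CPM correlated across genes at 0.9883 to 0.9903.

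The members and lists were chosen with earlier results of these data known. Values of all libraries are given for the 14 members with the largest change in either of the first 2 comparisons. Of each pathway list, up to 3 genes per direction and comparison could be named, by size among those past the threshold, at a mean of at least 5 CPM in the higher group and without overlap. Replicate numbers did not pair the libraries, and the correlations of same-numbered deviations ran from -0.045 to 0.0795. Alternatives were other scalings, DESeq2 1.42.0, limma-voom (limma 3.58.1), other filters, fits on the groups compared, a replicate block, the omission of every library singly, and a 2-fold minimum.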

Additional observations from a re-analysis of the deposited data

How the results depend on the processing

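Over 17 alternative settings the counts of calls over all 33 members kept within 1.5 times those of the reported fit. For resistance 12 to 13 members were higher and 8 to 12 lower, for the inhibitor 5 were higher in each setting and 18 to 21 lower, and in treated against naive cells 6 to 7 were higher and 19 to 22 lower. Over all genes the same settings gave 3954 to 4389 higher and 3934 to 4551 lower for resistance. For the inhibitor they gave 4352 to 4914 and 4069 to 4785, and in treated against naive cells 4240 to 4851 and 4256 to 5042. In the reported fit the shares of all genes were 29.8% and 29.4%, 31.9% and 30.5%, and 32.2% and 31.2% in the same order. The medians of the members ran from -0.01 to 0.03, from -0.33 to -0.26 and from -0.47 to -0.36. A required change of at least 2-fold left 1 member higher (HSPA5) and 1 lower (DERL3) for resistance, and 0 and 3 for the inhibitor. In treated against naive cells it left 0 and 4, with DERL3 among the 4. The direction of DERL3 against naive cells was fixed by the filter, so its calls in the counts over 33 members are not read. The share of all genes past 2-fold was not counted, so the 2-fold counts are not read as particular to the members. Leaving out DERL3, an alternative chosen after seeing the data, took 1 from the lower counts in both comparisons with naive cells. With the replicate number as a block the counts were 13 and 12, 5 and 21, and 7 and 21. No setting moved the median of all genes by as much as 0.1. The log2 fold changes that turned sign all belonged to members that had not passed. With 1 library left out, HYOU1 ran from -0.08 to 0.04, DERL2 from -0.03 to 0.11 and ATF6B from -0.01 to 0.07 for resistance. For the inhibitor SDF2L1 ran from -0.03 to 0.17, PDIA3 from -0.02 to 0.06 and DERL3 from -4.68 (without treated replicate 1) to 0.99, and in treated against naive cells DNAJB9 ran from -0.06 to 0.01 and P4HB from -0.02 to 0.03. With library totals alone PDIA3 came to -0.01 and P4HB to -0.05, and without a low-count filter P4HB came to -0.003, and the cause was not tested. Of the values of single members under the alternatives, 1624 kept their direction and side of the threshold, 20 lost a call, 20 gained one and 15 turned sign. DERL3, at 8 counts over the treated libraries, is limited by depth.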
